A study of Mus musculus with 4 samples.

Results

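Rapid response genes were examined in the lens of the mouse at postnatal day 4, in animals that lack Tdrd7 and in wild type controls. The group was fixed by name and held 10 genes: Fos, Jun, Junb, Egr1, Atf3, Ier2, Dusp1, Klf6, Klf4 and Socs3. Values for 7 of them were found by gene symbol among the 10790 genes of the table, and Fos, Atf3 and Ier2 were not analysed here. Tdrd7 encodes a Tudor-domain protein of RNA granules, and its loss causes cataract. There were 2 Tdrd7 -/- libraries, called null libraries 1 and 2 after their replicate numbers, and 2 wild type control libraries, and the RNA of each came from a pool of 15 lenses. A library is therefore a mean over animals and over both the epithelium and the fiber cells of the lens. The sources used here do not give the strain, the sex or the position of the Tdrd7 mutation.

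Immediate early genes are switched on within minutes of a growth factor, cytokine or stress signal, without new protein synthesis, from promoters bound by factors such as Srf, Elk and Creb that MAP kinases activate. Jun and Junb are subunits of the dimeric transcription factor AP-1, Egr1 is a zinc finger activator, and Klf4 and Klf6 are zinc finger factors of the Krüppel-like family. Dusp1, a phosphatase that switches MAP kinases off, and Socs3, which blocks cytokine signalling through Jak and Stat, are feedback inhibitors. Their messages are short-lived, in part through AU-rich elements, and their levels in dissected tissue are known to respond to handling.

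The promoters of the 4 genes that fell in the Tdrd7 null lenses, Jun, Klf6, Dusp1 and Socs3, are shown because these genes moved in 1 direction. Each is a 300-base window around the transcript start from RefSeq, build GRCm38.p6, and capitals mark matches on either strand to any of 5 motifs. The motifs were TGACNTCA (the site of Creb and Atf factors), TGANTCA (AP-1), TTCNNNGAA (Stat), GCGNGGGCG (Egr) and the CArG box (Srf). Jun is at chr4:95052173-95052472 on the minus strand, Klf6 at chr13:5861239-5861538 on the plus strand, Dusp1 at chr17:26508423-26508722 on the minus strand and Socs3 at chr11:117969317-117969616 on the minus strand.
Jun: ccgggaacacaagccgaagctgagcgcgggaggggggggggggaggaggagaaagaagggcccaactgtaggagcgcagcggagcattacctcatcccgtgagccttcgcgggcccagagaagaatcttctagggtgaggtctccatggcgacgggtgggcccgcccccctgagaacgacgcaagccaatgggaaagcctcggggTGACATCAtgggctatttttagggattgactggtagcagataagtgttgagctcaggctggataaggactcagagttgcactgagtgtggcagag
Klf6: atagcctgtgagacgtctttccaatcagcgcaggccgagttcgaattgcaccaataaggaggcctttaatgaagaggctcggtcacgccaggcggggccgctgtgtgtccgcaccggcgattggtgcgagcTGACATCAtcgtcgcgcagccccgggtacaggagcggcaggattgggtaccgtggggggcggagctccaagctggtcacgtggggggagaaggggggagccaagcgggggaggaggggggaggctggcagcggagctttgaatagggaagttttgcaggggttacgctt
Dusp1: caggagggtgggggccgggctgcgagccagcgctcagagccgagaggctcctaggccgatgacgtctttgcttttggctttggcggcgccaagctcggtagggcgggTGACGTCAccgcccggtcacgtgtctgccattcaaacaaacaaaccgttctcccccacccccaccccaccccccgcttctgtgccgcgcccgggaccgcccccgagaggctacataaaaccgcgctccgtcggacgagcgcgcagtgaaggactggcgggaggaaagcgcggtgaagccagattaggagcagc
Socs3: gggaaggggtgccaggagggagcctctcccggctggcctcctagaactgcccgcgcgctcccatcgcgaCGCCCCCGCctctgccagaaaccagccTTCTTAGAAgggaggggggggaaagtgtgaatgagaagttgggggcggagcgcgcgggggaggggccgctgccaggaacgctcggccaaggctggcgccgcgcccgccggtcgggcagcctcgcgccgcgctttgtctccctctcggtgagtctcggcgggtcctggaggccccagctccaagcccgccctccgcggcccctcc

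Jun and Klf6 both hold TGACATCA, at -45 and -119 from the transcript start, and Dusp1 holds the palindrome TGACGTCA at -143. TGACNTCA thus occurred in 3 of the 6 windows searched (those 3 and the windows of Socs3, Junb and Klf4, which lacked it) and in 8.83% of the 32851 promoter windows of the same length. Socs3 holds TTCTTAGAA at -154, a letter pattern found in 8.30% of windows, and an Egr match at -181. The Egr pattern, found in 5.55% of windows, also occurs in the Klf4 window. TGANTCA (7.81% of windows) and the CArG box (1.63%) had no match in the 6 windows. The promoter of Egr1 is not reported here, so these counts do not cover it. The motifs were settled on after several more letter patterns had been tried on these windows, so the matches are a description, and binding was not measured.

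The 3′ UTR of Dusp1 held the AU-rich nonamer TTATTTATT at 2 places, in the terminal exon, and it is shown because such elements mark messages for fast decay. Capitals mark the nonamer in 30-base windows of the minus strand of GRCm38, at chr17:26506158-26506187 and chr17:26505869-26505898.
Dusp1 site nearer the stop codon: gagctggtccTTATTTATTtaacacccccc
Dusp1 site nearer the 3′ end: gtttttacctTTATTTATTtttgtgtaggt

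Of the genes measured here Dusp1 was the only member with the nonamer, which 8.29% of 10586 genes hold. The shorter core ATTTA occurred from 1 time (Klf4) to 7 times (Klf6) in the 3′ UTRs of the members. Per kilobase of 3′ UTR the members' median was 2.71 copies, against 1.35 over all genes. The members also had few exons, from 1 in Jun and Junb to 5 in Klf4, with a median of 2 against 9 over all genes. Their GC content ran from 42.4% in Klf6 to 62.6% in Junb, with 6 of 7 above the median of all genes, 49.6%.

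Values are given as scaled reads: the authors counted reads per gene and put the libraries on a common scale. Read counts were recovered here from these values, as whole multiples of 1 step per library. They came to between 33920522 and 42767535 per library over the 10790 genes of the table. Tdrd7 stood at 1188 and 972 scaled reads in control libraries 1 and 2, and at 165 and 96.6 in null libraries 1 and 2, so the labels held in all 4 libraries. A gene was called at a limma adjusted p under 0.05. Over 10696 genes 18.0% were called, 7.88% lower and 10.1% higher in Tdrd7 null lenses. The difference between the genotypes ran with GC content: 15.5% of the 3542 genes between 52% and 60% GC were called lower, and 0.464% of the 2154 genes between 40% and 45%. A fit with the trend on GC content and length removed was therefore run as well, and in it 3.28% of genes were called, 1.33% lower.

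Jun, Klf6, Dusp1 and Socs3 fell in the Tdrd7 null lenses, by 1.20-fold to 1.34-fold, and 0 of the 7 members rose. At an unadjusted limma p under 0.05 the count was also 4. The 4 genes are a transcription factor of AP-1, a Krüppel-like factor and both feedback inhibitors. Junb, Egr1 and Klf4 did not pass. The median log2 difference of the 7 members was -0.26, against -0.01 over all genes tested, and the groups did not overlap for the same 4 members, as for 61.5% of all genes, with the null libraries lower in 31.3%. Once the GC trend was removed, Jun and Klf6 kept their calls, Dusp1 and Socs3 lost them, and the members' median was -0.16. Fewer cells that make a message and less of it per cell cannot be told apart in these pools.

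**Figure D1:**
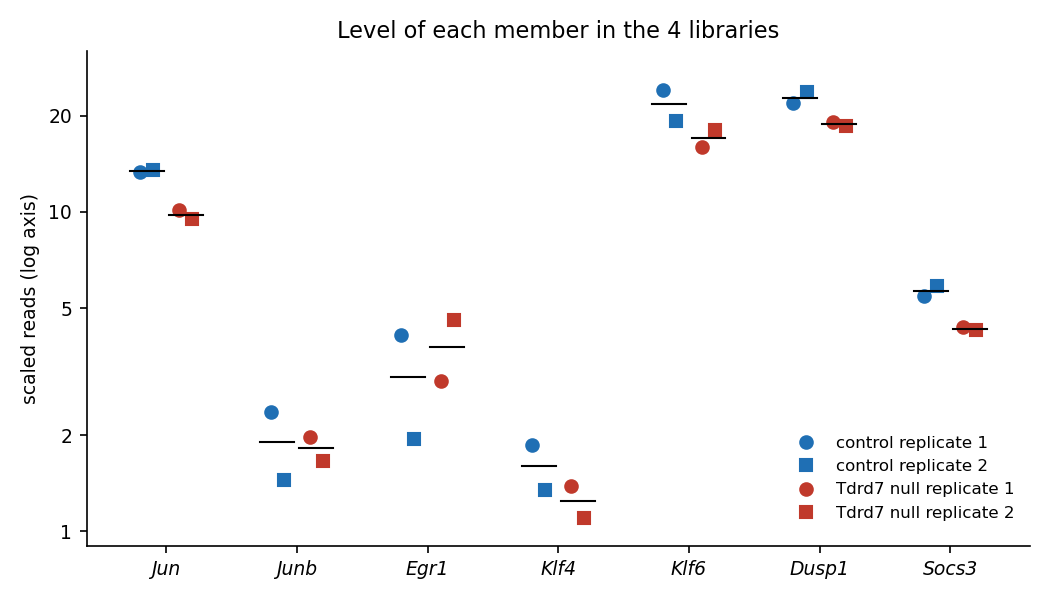
Scaled reads (log axis) of the 7 measured members in control (blue) and Tdrd7 null (red) libraries, circles for replicate 1, squares for replicate 2 and bars for the mean of 2 libraries. For Jun, Klf6, Dusp1 and Socs3 both Tdrd7 null points lie under both control points, while Egr1, Junb and Klf4 overlap.

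Jun, the most studied AP-1 subunit, had the clearest difference. Its level was 13.4 and 13.5 scaled reads in control libraries 1 and 2, and 10.1 and 9.49 in null libraries 1 and 2, from 554, 572, 381 and 337 reads. Both controls lay well above both null libraries, and the gap between the genotypes exceeded the difference within either pair. The control mean was 13.4 ± 0.117 and the null mean 9.81 ± 0.457 (SD, n = 2), a log2 difference of -0.42 (SE 0.0779, limma adjusted p = 0.00449). Removal of the GC trend left -0.30 (SE 0.0706, limma adjusted p = 0.0404). Jun (ENSMUSG00000052684) lies on chromosome 4 from 95049034 to 95052222 (GRCm38), 49.0 Mb from the end of Tdrd7 on the same chromosome. It shares 232 nt of exon with the antisense gene Junos, whose reads could not be told apart from its own without strand.

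Junb, another AP-1 subunit that often opposes Jun at their targets, stood at 2.36 and 1.44 scaled reads in control libraries 1 and 2, and at 1.97 and 1.66 in null libraries 1 and 2. The null values lay inside the control range. The log2 difference was -0.03 (95% interval -0.36 to 0.31, limma adjusted p = 0.919). It turned to 0.18 once the GC trend was removed, so no direction can be given. Junb (ENSMUSG00000052837, chromosome 8 from 84976909 to 84978748) rested on 59 to 98 reads per library, and its model in GENCODE M21 shares 173 nt of exon with Prdx2 on the opposite strand.

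Egr1, the zinc finger activator that follows MAP kinase and Srf activity, varied more within a genotype than between them. It stood at 4.12 and 1.94 scaled reads in control libraries 1 and 2, and at 2.95 and 4.59 in null libraries 1 and 2. The highest and the lowest control value thus enclosed 1 of the null values. The control mean was 3.03 ± 1.55 and the null mean 3.77 ± 1.16 (SD, n = 2), a log2 difference of 0.28 (95% interval -0.19 to 0.74, limma adjusted p = 0.395), and 0.46 without the GC trend (limma adjusted p = 0.282). With control library 2 left out it was -0.12 (limma adjusted p = 0.732). Egr1 (ENSMUSG00000038418) lies on chromosome 18 from 34859823 to 34864984.

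The spread of Egr1 between replicates exceeded counting error. Control library 1 held 171 reads (exact 95% Poisson interval 146 to 199) and control library 2 held 82 (65.2 to 102), intervals that cover counting error only, since copied molecules are not marked. Among the 2831 genes with a mean of 1 to 5 scaled reads, 0.459% had a control difference at least as large as that of Egr1 and 2.12% a Tdrd7 null difference as large.

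Most of the low endothelial markers had the same order of libraries as Egr1, and the most abundant did not. Vessels of the fetal lens, which lie on its surface and regress after birth, are a source of endothelial RNA. Of 9 endothelial markers with values, 6 had the order of Egr1, from the highest in null library 2 through control library 1 and null library 1 to the lowest in control library 2. The share of all genes with that order is not given here. Cdh5, the cadherin of endothelial junctions, stood at 3.47, 1.09, 2.24 and 3.72 scaled reads in control libraries 1 and 2 and null libraries 1 and 2. Pecam1, an adhesion molecule of the same cells, stood at 1.66, 1.06, 1.33 and 1.86, and was chosen after its values were seen. The most abundant markers, Egfl7 and Tek, did not have that order: Egfl7, a factor that endothelial cells secrete, stood at 7.02, 7.50, 7.63 and 6.84, lowest in null library 2. Tek, the receptor of angiopoietins, stood at 7.26, 7.02, 6.57 and 7.12, lowest in null library 1. Summed over the list the level was 28.8, 19.8, 23.4 and 29.7, with 0 markers called by limma and 0 at an unadjusted p under 0.05. Among pericyte markers Rgs5 had the same order, at 7.53, 2.86, 5.05 and 7.80. Klf6 also was higher in control library 1 than in control library 2 and higher in null library 2 than in null library 1, while Jun, Dusp1 and Socs3 went the other way within both pairs. For those 3 genes the steps were small. On the log2 scale library 2 minus library 1 ran from 0.02 to 0.11 in the controls and from -0.09 to -0.03 in the null libraries. The part of these cells in the values of Egr1 and the other members was not tested.

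**Figure D2:**
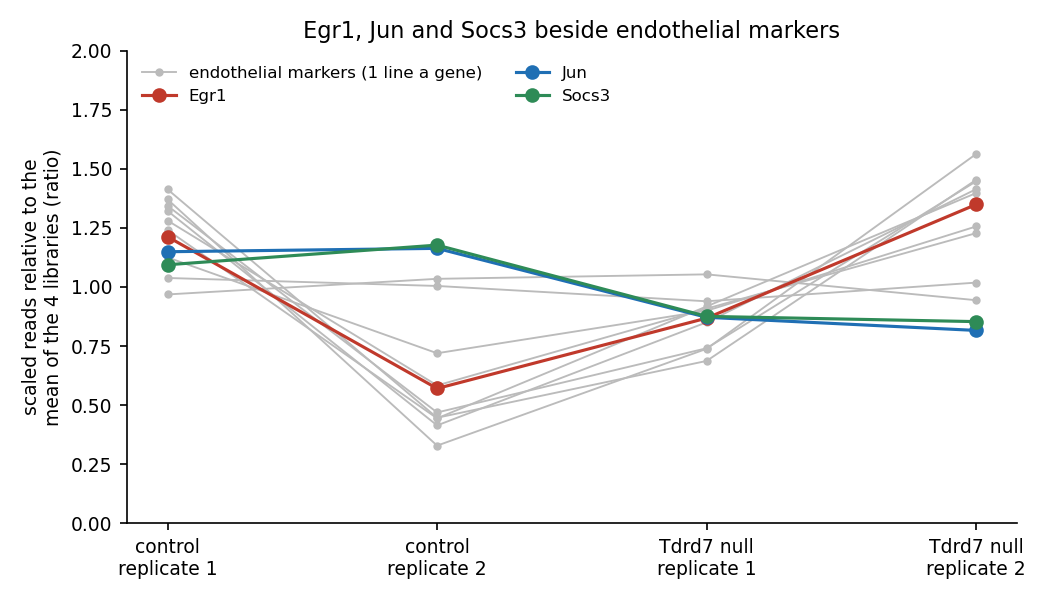
Scaled reads in each library divided by the mean of the 4 libraries, for Egr1 (red), Jun (blue), Socs3 (green) and 9 endothelial markers (grey, 1 line a gene), with lines joining the values of 1 gene. Egr1 and most grey lines are lowest in control library 2, whereas Jun and Socs3 are high in both controls.

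Klf6, a Krüppel-like factor induced by injury and stress, fell in the Tdrd7 null lenses against the direction of genes with its base composition. Its level was 24.2 and 19.3 scaled reads in control libraries 1 and 2, and 16.0 and 18.0 in null libraries 1 and 2. The groups did not overlap, but control library 2 and null library 2 lay close together. The mean fell from 21.7 ± 3.48 to 17.0 ± 1.46 (SD, n = 2), a log2 difference of -0.33 (SE 0.0959, limma adjusted p = 0.0318). The difference was larger once the GC trend was removed, at -0.46 (SE 0.0884, limma adjusted p = 0.0155). The transcript is 42.4% GC, and the median log2 difference of the 2154 genes between 40% and 45% GC was 0.14. The call was lost without control library 1 (-0.17, limma adjusted p = 0.305) and without null library 1 (-0.25, limma adjusted p = 0.0943). Klf6 (ENSMUSG00000000078) lies on chromosome 13 from 5861489 to 5870393.

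Klf4, the Krüppel-like factor best known from reprogramming and from surface epithelia, was close to the lower limit of the table. It stood at 1.86 and 1.35 scaled reads in control libraries 1 and 2, and at 1.38 and 1.10 in null libraries 1 and 2, from 39 to 77 reads. The groups overlapped by a small margin. The log2 difference was -0.21 (95% interval -0.52 to 0.10, limma adjusted p = 0.332) and -0.12 without the GC trend (limma adjusted p = 0.712). Klf4 (ENSMUSG00000003032) lies on chromosome 4 from 55527143 to 55532466, 9.49 Mb beyond the end of Tdrd7. Of the 32 genes tested between them 5 were called (15.6%), against 20.8% of the 679 genes tested on chromosome 4.

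Dusp1, the MAP kinase phosphatase, was the most abundant member and fell by a modest amount. Its level was 21.9 and 23.7 scaled reads in control libraries 1 and 2, and 19.2 and 18.6 in null libraries 1 and 2. Both null libraries lay under both controls, and the gap exceeded the difference within either pair. The mean fell from 22.8 ± 1.27 to 18.9 ± 0.422 (SD, n = 2), a log2 difference of -0.26 (SE 0.0690, limma adjusted p = 0.0227). Removal of the GC trend left -0.19 (SE 0.0606, limma adjusted p = 0.11). The call was lost without control library 1 (-0.31, limma adjusted p = 0.0629), control library 2 (-0.20, limma adjusted p = 0.183) or null library 2 (-0.24, limma adjusted p = 0.0873). Dusp1 (ENSMUSG00000024190) lies on chromosome 17 from 26505590 to 26508519 and shares 11 nt of exon with Ergic1 on the opposite strand.

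Socs3, the Stat-induced inhibitor of Jak kinases, had tight replicates at a low level. It stood at 5.45 and 5.87 scaled reads in control libraries 1 and 2, and at 4.36 and 4.25 in null libraries 1 and 2. The controls lay above the null libraries, with a gap larger than the difference within either pair. The mean fell from 5.66 ± 0.293 to 4.31 ± 0.0785 (SD, n = 2), a log2 difference of -0.33 (SE 0.0980, limma adjusted p = 0.0362). Its transcript is 58.7% GC, and with the GC trend removed the difference was -0.16 (SE 0.0883, limma adjusted p = 0.348). The call was lost without control library 1 (-0.37, limma adjusted p = 0.116), control library 2 (-0.28, limma adjusted p = 0.224) or null library 2 (-0.31, limma adjusted p = 0.1). Socs3 (ENSMUSG00000053113) lies on chromosome 11 from 117966079 to 117970047.

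**Figure D3:**
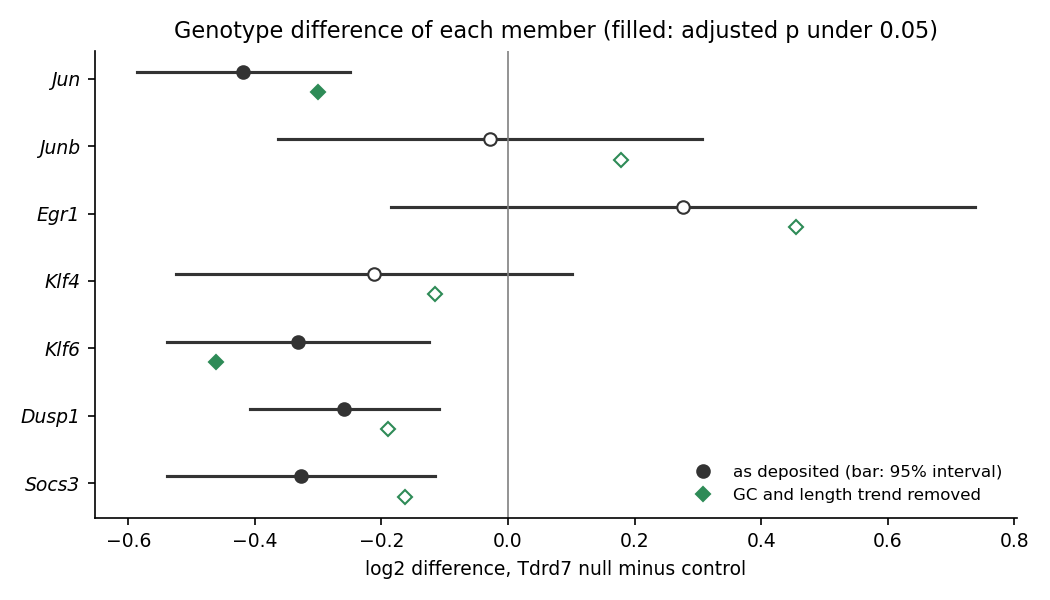
Log2 difference of each member (Tdrd7 null minus control) with its 95% interval (black circles) and after removal of the trend on GC content and length (green diamonds), filled where the limma adjusted p was under 0.05. Jun and Klf6 are filled in both fits, Dusp1 and Socs3 only in the first.

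Without the intensity trend of the limma prior none of the 4 kept its call, and Jun, at an adjusted p of 0.051, came nearest. In that fit 16 genes in all passed, 0.150% of those tested.

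**Figure D4:**
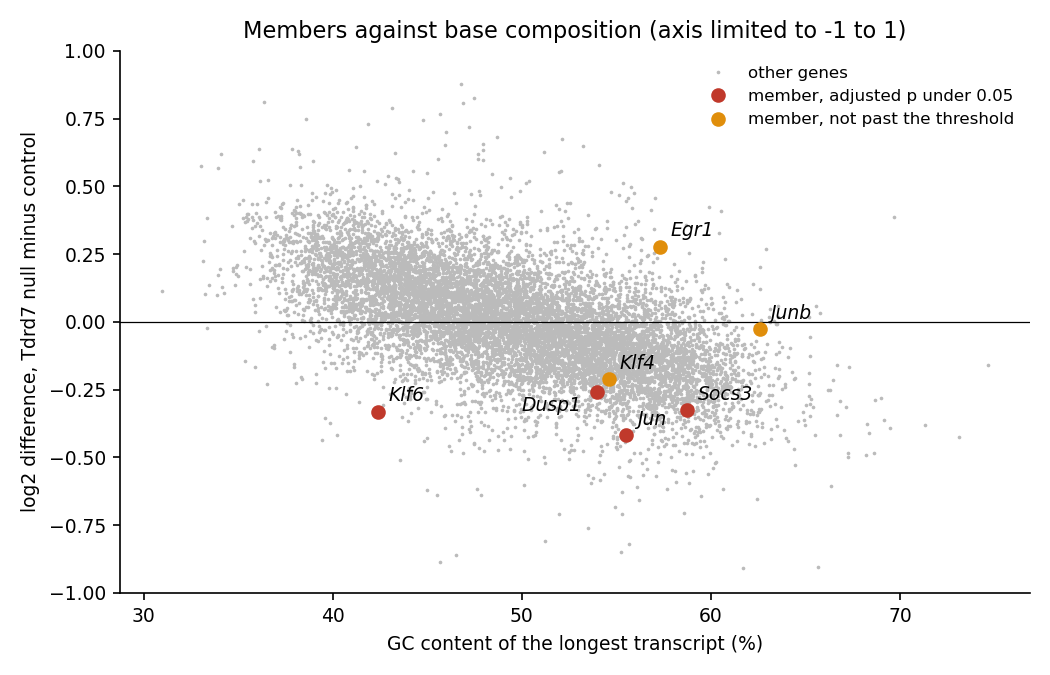
Log2 difference (Tdrd7 null minus control) of each gene against the GC content of its longest transcript in percent, with called members in red, other members in orange and all other genes in grey (5 genes lie beyond the axis). Klf6 at 42.4% GC lies under the cloud of its neighbours, Egr1 lies above most of its neighbours, and Socs3 lies within the cloud.

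Levels can be compared between genes only per length, here as scaled reads per kilobase of the longest transcript, averaged over the 4 libraries. Dusp1 was highest at 9.01, followed by Klf6 at 4.58, Jun at 3.65, Socs3 at 1.95, Junb at 1.03, Egr1 at 0.759 and Klf4 at 0.469. The order of Dusp1, Klf6, Jun and Socs3 held in every library. Junb and Egr1 changed places between libraries, so they cannot be ranked, and Klf4 was under both except in control library 2, where it was at 0.445 and Egr1 at 0.433. The median of all genes was 3.39, and Dusp1 and Klf6 lay above it in all 4 libraries. Jun lay above it in the controls, at 4.19 and 4.24, and below it in the null libraries, at 3.18 and 2.98. The other 4 members lay below it in every library.

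Other subunits of AP-1 and the related Atf and Maf factors changed in 2 of 14 genes tested, both downwards. The list and those that follow were drawn up with earlier results of these data known, and their counts stand against 7.88% of all genes called lower and 10.1% called higher. Jund, the AP-1 subunit that is expressed without a stimulus, fell from 24.5 and 24.7 scaled reads in the controls to 20.8 and 18.5, a log2 difference of -0.31 (limma adjusted p = 0.0115), but it shares 877 nt with an antisense gene, Gm11175. Without the GC trend Jund stood at -0.05, and limma called 0 of the 14 (5 by unadjusted p under 0.05). The median of the list was -0.06.

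Of 8 further Egr, Nr4a and Nab genes listed, 3 were tested, Nr4a1, Nab1 and Nab2, and limma called 0 (0 also by unadjusted p under 0.05). Nr4a1 stood at a log2 difference of 0.22 (limma adjusted p = 0.371). Nab1 and Nab2, the co-repressors that bind Egr proteins, stood at log2 differences of 0.10 and 0.07. Without the GC trend these were 0.07 and 0.26, and limma called 0 of the 3 (1 by unadjusted p under 0.05).

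The wider Krüppel-like family held 2 genes of 9 that fell and 0 that rose, with a median log2 difference of -0.15. Klf9, a factor induced by glucocorticoid and thyroid hormone, fell from 4.99 and 5.51 scaled reads to 3.56 and 3.60, with no overlap. Its log2 difference of -0.45 (limma adjusted p = 0.0117) was about the same with the GC trend removed, at -0.46 (limma adjusted p = 0.0308). Klf13 fell from 7.26 and 6.53 to 5.24 and 5.10 (log2 difference -0.35, limma adjusted p = 0.0235) and stood at -0.19 in the fit without the GC trend (limma adjusted p = 0.299).

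Among 28 other rapid response genes 3 rose and 6 fell, so the fall of Jun, Klf6, Dusp1 and Socs3 was not shared by the whole class. Rhob, an immediate early GTPase of the actin skeleton, fell from 50.3 and 55.1 scaled reads to 41.8 and 40.7 (log2 difference -0.34, limma adjusted p = 0.00381). Ppp1r15a, which restores translation after stress, the clock gene Per1 and the kinase Sik1 fell by 0.36, 0.40 and 0.38 on the log2 scale. Trib1 and Gadd45a also fell, by 0.24 and 0.25. In the other direction Gadd45b, a growth arrest gene, was 110 and 142 in the controls and 182 and 153 in the null libraries (log2 difference 0.41, limma adjusted p = 0.015). Ier5 rose by 0.41 and Tiparp by 0.27. After removal of the GC trend Rhob, Ppp1r15a and Gadd45a still fell and Gadd45b and Ier5 still rose, 2 higher and 3 lower in all. Gadd45b, Ier5, Tiparp, Trib1 and Gadd45a were chosen after their values were seen, and Gadd45a and Tiparp share 337 and 223 nt of exon with another gene on the opposite strand.

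**Figure D5:**
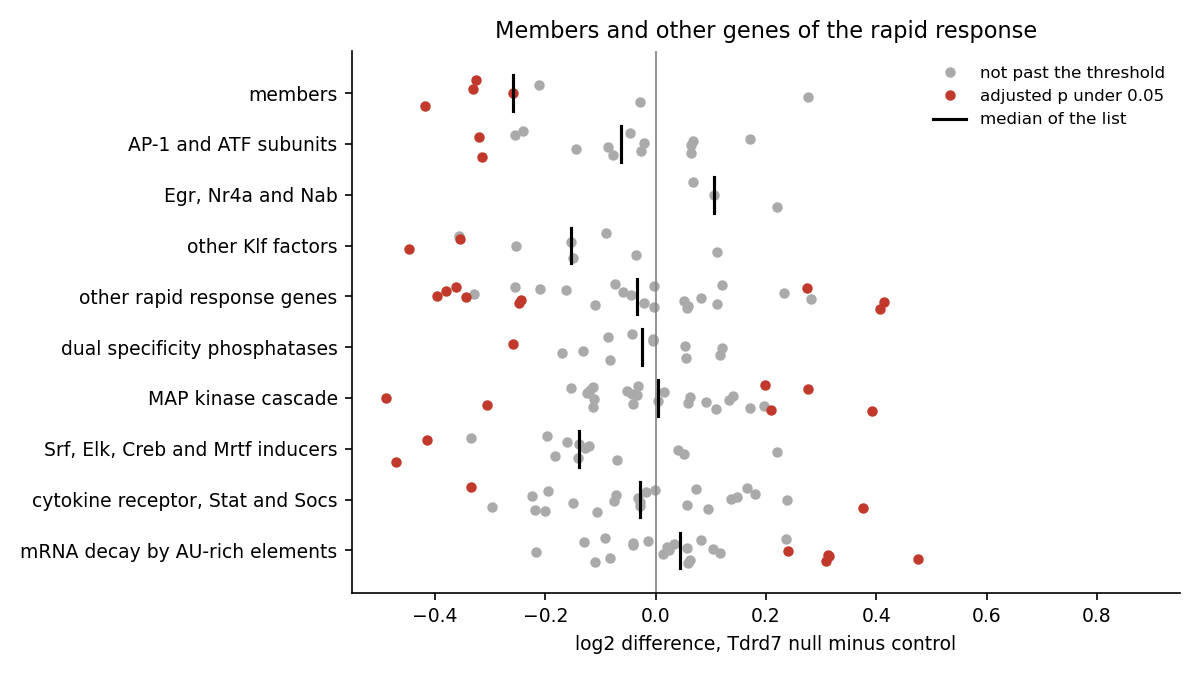
Log2 difference (Tdrd7 null minus control) of each tested gene (points), by list, with genes at a limma adjusted p under 0.05 in red and the median of each list as a black bar. Red points of the members, the AP-1 relatives, the other Krüppel-like factors and the inducers lie to the left of 0, while the other rapid response genes and the MAP kinase cascade hold red points on both sides.

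The factors that switch immediate early genes on were lower in 2 of 14 cases and higher in 0. Srf, which binds the CArG box, fell from 3.04 and 2.55 scaled reads to 1.78 and 1.69 (log2 difference -0.47, limma adjusted p = 0.021). Crtc3, a co-activator of Creb, fell from 5.60 and 5.44 to 4.10 and 3.69 (log2 difference -0.41, limma adjusted p = 0.0153). Srf is 64.4% GC, and without the GC trend the differences were -0.21 and -0.24 and neither passed limma (1 of the 14 at an unadjusted p under 0.05).

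Genes of the MAP kinase cascade went both ways, with 4 of 27 higher and 2 lower. Nras, a small GTPase near its top, rose by a log2 difference of 0.21 (limma adjusted p = 0.0197). Mapk7, the kinase Erk5, fell from 11.5 and 11.4 scaled reads to 8.27 and 7.52 (log2 difference -0.49, limma adjusted p = 0.00311). The kinase Map2k2 fell by 0.31 on the log2 scale. In the fit without the GC trend 1 gene, Mapk7, fell, at -0.31 (limma adjusted p = 0.0443). Mapk7 shares 89 nt of exon with Mfap4 on the opposite strand, which also fell.

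Few relatives of the feedback inhibitors were called. Of 12 other dual specificity phosphatases Dusp15 fell (log2 difference -0.26, limma adjusted p = 0.0421), and without the GC trend limma called 0 of them (0 also by unadjusted p under 0.05). Of 24 cytokine receptor, Stat and Socs genes 1 rose and 1 fell: the kinase Jak2 went from 4.10 and 4.28 to 5.69 and 5.77 scaled reads (log2 difference 0.38, limma adjusted p = 0.0199), and the kinase Pim3, a Stat target, from 12.0 and 10.3 to 8.54 and 8.70 (log2 difference -0.33, limma adjusted p = 0.0228). At an unadjusted limma p under 0.05 the count was 9 of the 24. Without the GC trend limma called 0 of the 24 (5 by unadjusted p under 0.05).

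Proteins that bind or degrade messages with AU-rich elements were higher in 5 of 24 cases and lower in 0, while 10.1% of all genes were called higher and 23.0% of genes between 40% and 45% GC were called. Tial1, Tia1, Hnrnpd and Cnot6 rose by log2 differences of 0.31, 0.31, 0.31 and 0.24, and all 4 are rich in A and T, at 39.8% to 41.7% GC. Tia1 and Hnrnpd share 352 and 385 nt of exon with another gene. Limma called 0 of these 24 without the GC trend (6 by unadjusted p under 0.05).

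The tissue label held. Cryaa, Cryba1 and Crybb1, crystallins of the fiber cell, were the highest of the fiber markers, with Cryaa between 125016 and 141976 scaled reads. Lens epithelium, whose cells receive growth factor signals, was represented by Slc2a1, Pdgfra and Pax6 at 157 to 194, 81.3 to 88.0 and 106 to 112, and its summed markers were 691 and 705 in the controls and 665 and 657 in the null libraries. In that list 1 marker rose and 3 fell, Slc2a1 among them. Pericyte markers summed to 48.9 and 38.8 in the controls, against 33.7 and 36.8 in the null libraries, with 2 of 5, Notch3 and Pdgfrb, lower, and ciliary body and iris markers to 112 and 116 against 98.1 and 93.2, with 2 of 4, Mfap2 and Mfap4, lower. Over all genes 7.88% were called lower. Without the GC trend limma called 0 markers of the epithelium (6 by unadjusted p under 0.05), 0 of pericytes (2) and 0 of the ciliary body and iris (2), with Slc2a1 at -0.18, Notch3 at -0.26, Pdgfrb at -0.19, Mfap2 at -0.17 and Mfap4 at -0.17. Not all of these markers fell: the pericyte markers Rgs5 and Abcc9 stood at 0.35 and 0.13, and the ciliary body and iris marker Tyrp1 at 0.18, none called. In the epithelium Gja1, chosen after its values were seen, rose by 0.33 (limma adjusted p = 0.00692). Pax6 and Pdgfra stood at 0.01 and 0.09, neither called. Notch3 was the largest part of the pericyte sum, at 27.1 and 22.6 scaled reads in the controls and 16.5 and 18.0 in the null libraries. Slc2a1 weighed on the epithelium sum, at 192 and 194 in the controls and 164 and 157 in the null libraries. Mfap2 was the largest part of the ciliary body and iris sum, at 67.8 and 71.6 against 57.2 and 56.9. The 3 sums were lower in both null libraries, as were Jun, Klf6, Dusp1 and Socs3, but a sum that follows a few genes does not give the share of a cell type. The part of these cells in the values of the members was not tested. Markers of macrophages and of the retina were not analysed here.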

How the data were processed

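RNA was sequenced from 4 libraries of pooled mouse lenses, 2 of each genotype. The submitters' processing notes name the build mm10 (GRCm38) and, as tools, Cuffnorm, Cufflinks, TopHat2 2.0.9 and Trimmomatic. The sources used here do not give the read counter or the scaling step. Values in the deposited table are a signal that the authors had scaled: divided by 1 step per library, all came out whole within 0.001. No gene had a highest value under 1.02.

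Values were tested as log2(scaled reads + 1), which understates the change of low genes, in the 10696 genes whose mean was 1 or more. limma 3.58.1 in R 4.3.3 gave two-sided tests, adjusted by Benjamini-Hochberg over all genes, with a prior that follows intensity (2 residual and 11.1 prior degrees of freedom). GC content, exons and length came from the longest transcript in GENCODE M21 (10750 genes), and 3′ UTRs from the longest protein-coding one, which among the members is another transcript in Dusp1 only. The GC and length trend was removed per library with natural splines of 5 degrees of freedom each. The fit was tested on simulated counts. The kit does not mark strand.

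All members with values were named, with up to 4 called genes of each pathway list by smallest p (otherwise the 2 most abundant) and the 3 most abundant genes of each marker list. Some genes that this rule selects are not reported here. The members, lists and alternatives were chosen with earlier results of these data known.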

Additional observations from a re-analysis of the deposited data

How the results depend on the processing

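Of 20 alternatives, 19 called Jun, 17 Klf6 and 13 Dusp1, and 11 of 19 called Socs3, which the minimum mean of 5 left out. One of these alternatives was the main fit at an adjusted p under 0.1, so it had to keep every call. Rescaling by trimmed means of log ratios called 1920 genes, as the main fit did, and the crossed pairing below is counted too. All 4 stayed below 0 in each. The filters, the priors, the replicate blocks on the deposited values and the looser threshold leave the difference itself unchanged, so its sign could not turn there. For these 4 genes both null values lay under both controls. Leaving out 1 library or adding another constant before the logarithm therefore could not turn their sign either. Junb, Egr1 and Klf4 were called in 0 of 19. Against 4 members and 1920 genes called in all, rescaling by total reads gave 2 and 988, a prior without the intensity trend 0 and 16, and removal of the GC trend 2 and 350. Leaving out 1 library gave 1 to 3 members and 431 to 2196 genes. A fit with 1 library of a genotype assumes that it varies like the others. In 0 alternatives was a member called higher. Junb turned to 0.18 with the GC trend removed, and ranged from -0.26 to 0.20 when 1 library was left out (0.05 without null library 2). Egr1 ranged from -0.12, without control library 2, to 0.68. The cause was not tested.

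The replicate numbers are not known to pair the libraries (correlation of their deviations across genes -0.151). With the replicate number as a block 4 members and 2117 genes were called. With that block and the GC trend removed there were 2 members and 412 genes, and Junb stood at 0.18. A crossed pairing, chosen after seeing the data, gave 4 members and 3036 genes. The trimmed means of log ratios were computed directly. The 2 planned count models were not run. Counts of 39 to 98 reads per library limit Junb and Klf4.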

Other observations

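Other clock genes were looked at after the fall of Per1 had been seen. Of 17 tested, Per1 included, limma called 2 lower, Per1 itself and Per2, and 0 higher. The share called lower over all genes was 7.88%. Per1, a repressor of the clock, stood at 15.7 and 13.6 scaled reads in control libraries 1 and 2, and at 11.5 and 10.2 in null libraries 1 and 2. Per2, its partner, stood at 18.3 and 16.5 in the controls and at 14.8 and 13.5 in null libraries 1 and 2 (log2 difference -0.28, limma adjusted p = 0.0277). For both genes the groups did not overlap, as for 61.5% of all genes. Without the GC trend the differences were -0.18 and -0.14, and limma called 0 of the 17 (2 by unadjusted p under 0.05). The sources used here do not give the time of day at dissection.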
